A study of Sus scrofa domesticus with 4 samples.

Results

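Growth hormone, prolactin and a pair of receptors through which the hypothalamus acts on the cells that make them were followed in the anterior pituitary of gilts, which are female pigs that have not yet farrowed. The 4 genes, GH1, PRL, GHRHR and SSTR2, were taken as all non-control probes of the array whose RefSeq transcript accession belongs to one of them in the pig RefSeq annotation. This gave 7 of 43603 probes, namely 1 for GH1 (A_72_P232612), 4 for PRL (A_72_P027831, A_72_P500876, A_72_P594739 and A_72_P651239, called PRL probes 1 to 4 here), 1 for GHRHR (A_72_P088606) and 1 for SSTR2 (A_72_P223862). All 7 passed the filter on dim probes. Of the 3029 genes that could be named on the array, these are 4, and the probe with the highest mean intensity (PRL probe 1) stands for PRL where 1 value per gene is given.

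The pregnant group held 4 naturally bred gilts killed on days 15 to 16 of early pregnancy, when conceptuses were present. The cyclic group held 4 gilts killed on days 15 to 16 of the estrous cycle. All 8 animals were mature Large White x Polish Landrace crosses, with no other treatment in either group. Each of 4 two-colour Agilent arrays carried labelled RNA of 1 pregnant and 1 cyclic gilt, so an array is 1 pair of animals, and a ratio is the log2 value of the pregnant animal over its cyclic partner. By the label fields of the samples pregnant RNA was labelled with the dye Cy3 on arrays 1 and 3 but with Cy5 on arrays 2 and 4, whereas the text of the labelling protocol names Cy3 for pregnant animals throughout. The label fields were followed, and the authors' deposited table, whose sign is turned on arrays 1 and 3, runs the same way.

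Growth hormone and prolactin are related protein hormones, secreted by the somatotropes and the lactotropes of the anterior lobe. Both cell types descend from precursors that need the transcription factor POU1F1. Somatotropes are driven by hypothalamic growth hormone-releasing hormone, whose receptor GHRHR couples to Gs and cyclic AMP, and restrained by somatostatin, which acts through inhibitory receptors of which SSTR2 is one. Lactotropes differ in being held back mainly by dopamine. In the pig, prolactin also acts on the corpora lutea, the ovarian glands that keep a pregnancy going by secreting progesterone.

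The depth of the measurement was set by the arrays. Between 50.4% and 60.4% of the probes in the pregnant channels and between 52.5% and 66.5% in the cyclic channels were well above background, and 0 spots on each array were saturated. GH1, PRL and GHRHR were well above background in all 8 channels. SSTR2 was so in 7 of 8, the exception being the pregnant animal of array 4. GH1 and PRL lay close enough to the top of the scanner's range for their size to be given. The GH1 spot reached 87.0% of the saturation value in the cyclic channel of array 3, and the 4 PRL probes between 9.94% and 78.2% over all channels. Each animal was measured once, and the number of arrays limits the precision of every value.

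Whether early pregnancy is accompanied by another level of these transcripts was asked in a fit over all 25203 probes that passed the filter. The 4 genes stood below 0 by 0.31 to 0.64 on the log2 scale, but 0 of their 7 probes passed an adjusted p of 0.05 (limma with Benjamini-Hochberg adjustment, 0% of all probes). At an unadjusted p under 0.05 stood 1 of the 7, SSTR2, where 8.03% of all probes stood (2023 of 25203, and 4.59% on the lower side). All 7 estimates were below 0, as were 52.4% of all estimates. The median estimate of the 25203 probes was -0.010. Every gene had pairs of both signs, with 1 pair above 0 and 3 below.

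**Figure D1:**
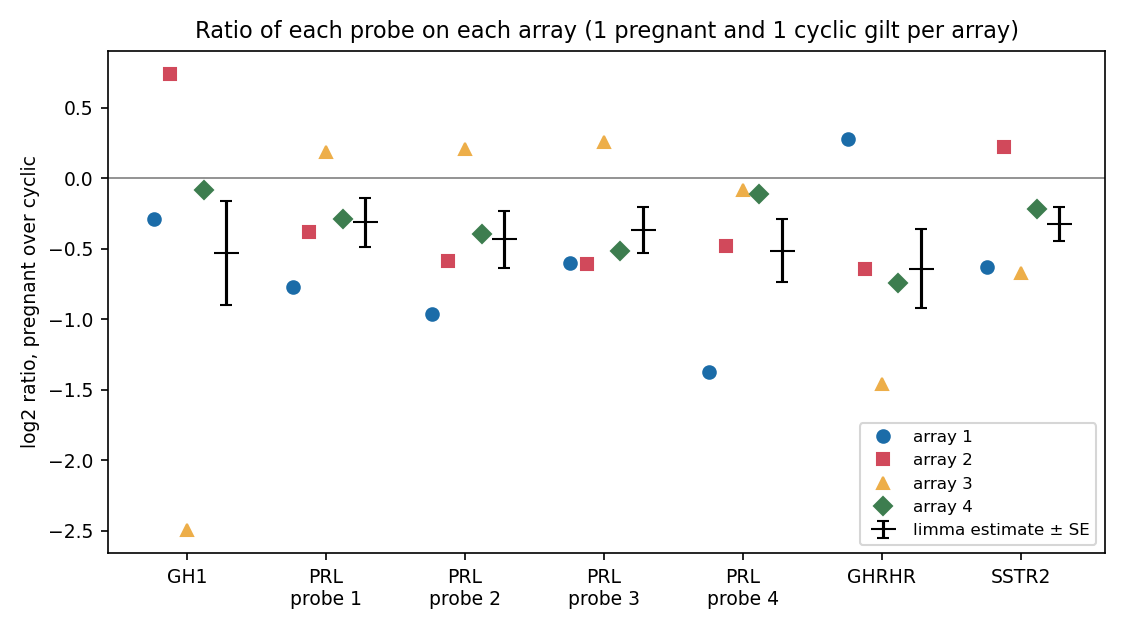
Log2 ratio of pregnant over cyclic (vertical axis) for the GH1 probe, the 4 PRL probes, the GHRHR probe and the SSTR2 probe; coloured points are the 4 arrays, each 1 pregnant and 1 cyclic gilt, and black bars the limma estimate ± its standard error. GH1 spans from -2.50 on array 3 to 0.74 on array 2, while PRL probes 1 to 3 are above 0 on array 3 alone.

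GH1 encodes growth hormone, the main product of the somatotropes. Its normalized log2 intensity was 18.03, 18.37, 16.22 and 18.14 in the pregnant gilts of arrays 1 to 4, against 18.32, 17.63, 18.71 and 18.22 in the cyclic gilts. The groups overlapped, and the pregnant gilt of array 3 had the lowest value of all 8 animals while its cyclic partner had the highest. The group means were 17.69 ± 0.99 in pregnant gilts and 18.22 ± 0.45 in cyclic gilts (SD, n = 4 each). In bulk tissue, fewer somatotropes and less growth hormone RNA per somatotrope cannot be told apart.

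The GH1 ratios were -0.29, 0.74, -2.50 and -0.083 on arrays 1 to 4. One pair thus differed by more than the other 3 together, and the array 2 pair went the other way. The limma estimate was -0.53 ± 0.37 (SE, a 0.692-fold level in pregnancy), with a 95% interval from -1.46 to 0.39 and an adjusted p of 0.668. An exact two-sided sign-flip test over the 4 arrays gave p = 0.625, where 0.125 is the smallest that 4 arrays allow. Without array 3 the estimate was 0.019, so the sign depended on that pair. Leaving out array 1 moved it the other way, to -1.083. With all arrays but background parameters estimated from all spots, the estimate was -0.026 ± 0.50 (SE), so its size also moved with that choice. The other background choices moved it little. It was -0.535 with no background correction, -0.516 with an offset of 10 and -0.482 with the scanner software's processed signals. On array 3 only 0.0318% of the tested probes had a ratio below that of GH1. The fitted dye effect, red over green, was 0.86 (limma unadjusted p = 0.0619), larger than the effect of pregnancy.

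The brightest probes of each array did not centre on 0. The 435 probes with a mean log2 intensity above 16, among them GH1 and the 4 PRL probes, had median ratios of -0.24, 0.14, -0.27 and 0.15 on arrays 1 to 4, below 0 where the pregnant animal carried Cy3 and above 0 where it carried Cy5. Relative to those medians, GH1 stood at -0.050, 0.61, -2.23 and -0.24. The pattern over the pairs was the same as before. The mean of the 4 values was -0.48.

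**Figure D2:**
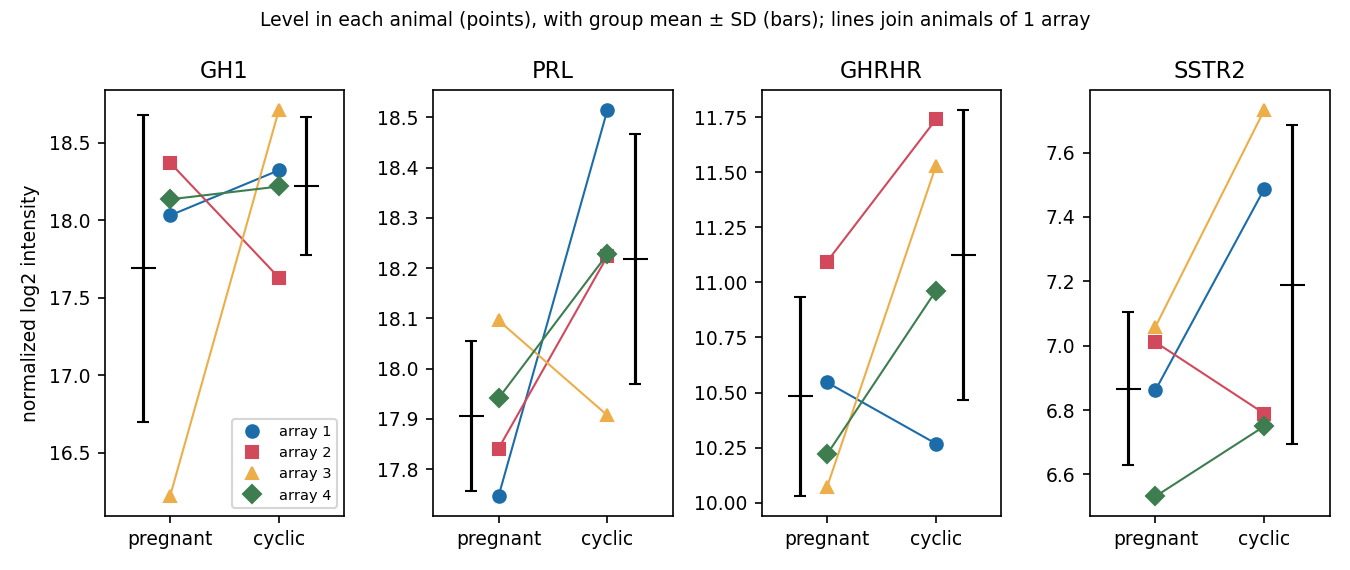
Normalized log2 intensity (vertical axis, a scale of its own for each gene) of GH1, PRL probe 1, GHRHR and SSTR2 in the 4 pregnant and the 4 cyclic gilts; a line joins the animals of 1 array, and black bars give the group mean ± SD (n = 4 each). The groups overlap in all 4 panels, and the pregnant gilt of array 3 stands apart for GH1 at 16.22.

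PRL encodes prolactin, the hormone of the lactotropes. The normalized log2 intensity of PRL probe 1 was 17.75, 17.84, 18.10 and 17.94 in the pregnant gilts of arrays 1 to 4, against 18.52, 18.22, 17.91 and 18.23 in the cyclic gilts. In the pregnant group the values lay within a narrow band, and 3 of the 4 cyclic values were above all of them. The exception was the cyclic gilt of array 3, so the groups overlapped. Means were 17.91 ± 0.15 in pregnant gilts and 18.22 ± 0.25 in cyclic gilts (SD, n = 4 each).

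The 4 PRL probes allowed the measurement to be repeated within an array. Ratios of probe 1 were -0.77, -0.38, 0.19 and -0.29 on arrays 1 to 4. Those of probe 2 were -0.96, -0.58, 0.21 and -0.40. Probe 3 had -0.60, -0.61, 0.26 and -0.52, which makes array 3 the odd pair in each of these probes. Probe 4 had -1.37, -0.48, -0.082 and -0.11, and was the 1 probe of the 7 below 0 on all 4 arrays, as 7.73% of all probes were. Its array 3 value stood above 0 in the authors' deposited table, at 0.31. The means of the 4 probes were -0.93, -0.52, 0.14 and -0.33 on arrays 1 to 4. The SD among probes within an array was 0.33 on array 1 and between 0.10 and 0.17 on the others, against an SD of 0.44 between the array means. The probes share 1 transcript and 1 labelling and are not replicates of the animals.

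The limma estimates were -0.31 ± 0.18, -0.43 ± 0.20, -0.37 ± 0.16 and -0.51 ± 0.23 for PRL probes 1 to 4 (SE), with adjusted p between 0.605 and 0.624. As folds these are 0.805, 0.741, 0.775 and 0.701 in pregnancy. The 95% interval of probe 1 ran from -0.75 to 0.13. The exact sign-flip test gave p = 0.25 for probes 1 to 3 and 0.125, the smallest possible, for probe 4. Without array 3 probe 1 stood at -0.55 (limma unadjusted p = 0.0121, adjusted p = 0.538, with the spread taken from arrays 2 and 4 alone), and without array 1 at -0.073. The sign turned with background parameters estimated from all spots, at 0.18, and with a single dye orientation, at 0.022. The latter value is the fitted dye effect of probe 1, -0.022, with its sign turned. Relative to the bright probes of each array, probe 1 stood at -0.53, -0.52, 0.46 and -0.44, and all 4 PRL probes were above 0 on array 3, probe 4 at 0.19.

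GHRHR encodes the receptor of growth hormone-releasing hormone and marks the somatotrope. Its normalized log2 intensity was 10.55, 11.09, 10.07 and 10.22 in the pregnant gilts of arrays 1 to 4, against 10.27, 11.74, 11.53 and 10.96 in the cyclic gilts. The cyclic gilt of array 1 was below its partner and the other 3 cyclic gilts were above theirs. The groups overlapped, with means of 10.48 ± 0.45 in pregnant gilts and 11.13 ± 0.66 in cyclic gilts (SD, n = 4 each).

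The GHRHR ratios were 0.28, -0.65, -1.46 and -0.74 on arrays 1 to 4. Array 3 was the lowest, as for GH1, and 0.381% of the tested probes lay below GHRHR there. The limma estimate was -0.64 ± 0.28 (SE, 0.641-fold), with a 95% interval from -1.34 to 0.059 and an adjusted p of 0.605. The exact sign-flip test gave p = 0.25. Single pairs moved it: without array 1 it was -1.08 (limma unadjusted p = 4.2e-04, adjusted p = 0.241), and without array 3 it was -0.21. With array 1 or 3 left out, the spread within a dye orientation rests on arrays 2 and 4 alone, which for GHRHR were close together. The fitted dye effect was small, at -0.052, and a single dye orientation gives that effect with its sign turned, 0.052. GHRHR lay far from the bright end of the scanner's range, at 0.0898% to 0.487% of the saturation value.

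SSTR2 encodes a somatostatin receptor that inhibits growth hormone release. The signal was weak, with a median intensity between 75.0 and 107.5 in pregnant channels and between 99.0 and 258.5 in cyclic channels, over local backgrounds of 30.0 to 45.0. Its normalized log2 intensity was 6.86, 7.01, 7.06 and 6.53 in the pregnant gilts of arrays 1 to 4, against 7.49, 6.79, 7.73 and 6.75 in the cyclic gilts. The groups overlapped here too. Means were 6.87 ± 0.24 in pregnant gilts and 7.19 ± 0.50 in cyclic gilts (SD, n = 4 each).

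The SSTR2 ratios were -0.63, 0.22, -0.68 and -0.22 on arrays 1 to 4. On array 4 the pregnant channel was not well above background, so 3 of the 4 pregnant animals had a clear signal. The value of the other animal, near the floor, is still part of the group mean and of the estimate. The authors' deposited table gives -1.37 on array 4. The lower pair of values came from the arrays on which the pregnant animal carried Cy3. The limma estimate of -0.32 ± 0.12 (SE, 0.799-fold, 95% interval from -0.62 to -0.029) had an unadjusted p of 0.0364 and an adjusted p of 0.605. The dye effect fitted beside it was of the same size, 0.33 for red over green (limma unadjusted p = 0.0355). Without a dye term the unadjusted limma p was 0.103, and the exact sign-flip test, which leaves the dye in the spread, gave p = 0.375. With the scanner software's processed signals the estimate was -0.76 ± 0.33, against the -0.32 of the normexp values. This gene kept its sign under all 15 alternatives that measured it, from -0.76 to -0.21. Several of them, such as the fit without a dye term, could only return -0.32 again. The single dye orientation gave -0.33, which is the fitted dye effect with its sign turned and not a measure of pregnancy.

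The 4 genes did not move as a block over the pairs. On array 3 GH1, GHRHR and SSTR2 had their lowest ratios while PRL probe 1 had its highest. On array 2 GH1 and SSTR2 were above 0 while PRL and GHRHR were below. GH1 minus PRL was 0.48, 1.13, -2.69 and 0.21 on arrays 1 to 4, so 3 pairs had the higher ratio for growth hormone and 1 pair for prolactin. GH1 minus GHRHR was -0.57, 1.39, -1.04 and 0.66, with 2 pairs on each side. Over the 6 possible pairs of genes the mean difference was between -0.32 and 0.33. The exact sign-flip test gave p between 0.625 and 1, with an adjusted p of 1 for each. Since 4 arrays cannot give a p below 0.125, this test could not have called a difference and does not show that the genes behaved alike. The SD of the differences over the arrays was between 0.62 and 1.69.

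By the root mean square difference of the 4 ratios, over 2409 other named genes, the nearest to GH1 were TNFSF12 (0.46), HNF4A (0.50) and C6 (0.53). None of them reached -2.50 on array 3, where they stood at -1.68, -1.55 and -1.83. Nearest to PRL probe 1 were APOM (0.11), HDDC3 (0.13) and TCAP (0.15), and they stood between 0.030 and 0.092 on array 3. GHRHR had SCNN1G (0.38), SLC22A4 (0.41) and PSTPIP1 (0.41) nearest. SSTR2 had CLDN5 (0.16), NTRK3 (0.16) and SGCZ (0.18). The likeness covers 4 arrays that share animals and labelling among all genes, and it is a description.

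Other genes of growth hormone and prolactin control were read from lists, each gene by its brightest tested probe. Among other receptors of somatotropes, lactotropes and their neighbours, 6 of 15 listed genes were tested, and all 6 estimates were below 0 with a median of -0.18. Of all estimates 52.4% were below 0. The receptor genes VIPR1 and SSTR3, chosen after their values were seen, lay close to 0, at -0.004 ± 0.11 and -0.024 ± 0.099. At an unadjusted p under 0.05 stood 0 of the 6. GNRHR, the receptor of gonadotropin-releasing hormone, was at -0.65 ± 0.29, from -1.18 and -1.41 on arrays 1 and 2 to 0.012 and -0.033 on arrays 3 and 4. TRHR, the thyrotropin-releasing hormone receptor, which lactotropes also use, was at -0.25 ± 0.13. The signals of TRHR and VIPR1 were weak, at mean log2 intensities of 7.37 and 7.32. SSTR5, another somatostatin receptor, was chosen after its values were seen and had -0.35, 0.34, -1.12 and 0.19 on arrays 1 to 4, with an estimate of -0.23 ± 0.15. SSTR1 and GHSR, the ghrelin receptor, were on the array but well above background in 3 and 1 of 8 channels and were not tested.

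Of 14 genes listed as hypothalamic ligands 5 were tested, 4 of them above 0, with a median of 0.17 and 0 at an unadjusted p under 0.05. GNRH1, the gonadotropin-releasing hormone precursor, stood at 0.44 ± 0.19 and OXT, the oxytocin precursor, at -0.36 ± 0.16. The GNRH1 signal was as weak as that of SSTR2, with mean log2 intensities of 7.11 and 7.035. GNRH1 was well above background in 7 of 8 channels. GHRH and SST, the ligands of GHRHR and SSTR2, were well above background in 1 and 2 of 8 channels and were not tested. These are levels in the gland and not in the hypothalamus.

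Of 18 lineage transcription factors 7 were tested, 3 below and 4 above 0, with a median of 0.012. POU1F1, on which both somatotropes and lactotropes depend, was well above background in all 8 channels and stood at 0.012 ± 0.14, with ratios of 0.38, -0.27, -0.19 and 0.12. ETS1, a factor that cooperates with POU1F1 at the rat prolactin promoter, stood at 0.46 ± 0.12 and above 0 on 4 of 4 arrays (limma unadjusted p = 0.0115, adjusted p = 0.605). It was the 1 factor on the higher side at an unadjusted p under 0.05, where 3.43% of all probes stood. GATA2, a factor of thyrotropes and gonadotropes, stood at -0.65 ± 0.28, and was well above background in 3 of the 4 pregnant animals.

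Of 12 nuclear receptors 6 were tested, with a median of -0.38 and 5 of them below 0, as were 52.4% of all estimates. At an unadjusted p under 0.05 on the lower side stood 2 of the 6, where 4.59% of all probes stood. ESR1, the estrogen receptor through which estradiol raises prolactin synthesis, stood at -0.52 ± 0.15 with -0.85, -0.65, -0.62 and 0.028 on arrays 1 to 4, while both of its other probes stood above 0. PGR, which binds progesterone, had an estimate of -0.55 ± 0.21, with -0.71, -0.075, -1.83 and 0.40 on arrays 1 to 4. Both had an adjusted p of 0.605.

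For cyclic AMP signalling, the route of GHRHR, 5 of 21 genes were tested, 3 below and 2 above 0, with a median of -0.21 and 0 at an unadjusted p under 0.05. GNAI2, an inhibitory G protein alpha subunit used by somatostatin receptors, stood at -0.55 ± 0.25, with -1.54 on array 2. GNAI3, its relative, stood at 0.29 ± 0.18. GNAS, the stimulatory subunit, was chosen after its values were seen and stood at -0.21 ± 0.11, and all 15 of its other probes shared that sign.

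Of 17 genes of hormone action and feedback 12 were tested, 4 below and 8 above 0, with a median of 0.066. GHR, the growth hormone receptor, stood at 0.36 ± 0.12 and above 0 on 4 of 4 arrays, with 0.71, 0.30, 0.32 and 0.13. IGFBP5, a binding protein of the insulin-like growth factors, stood at -0.76 ± 0.22 and below 0 on 4 of 4 arrays. These were the 2 genes of the list at an unadjusted p under 0.05, against 3.43% of all probes on the higher and 4.59% on the lower side, and both had an adjusted p of 0.605. PRLR, the prolactin receptor, was well above background in 1 of 8 channels and was not tested.

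**Figure D3:**
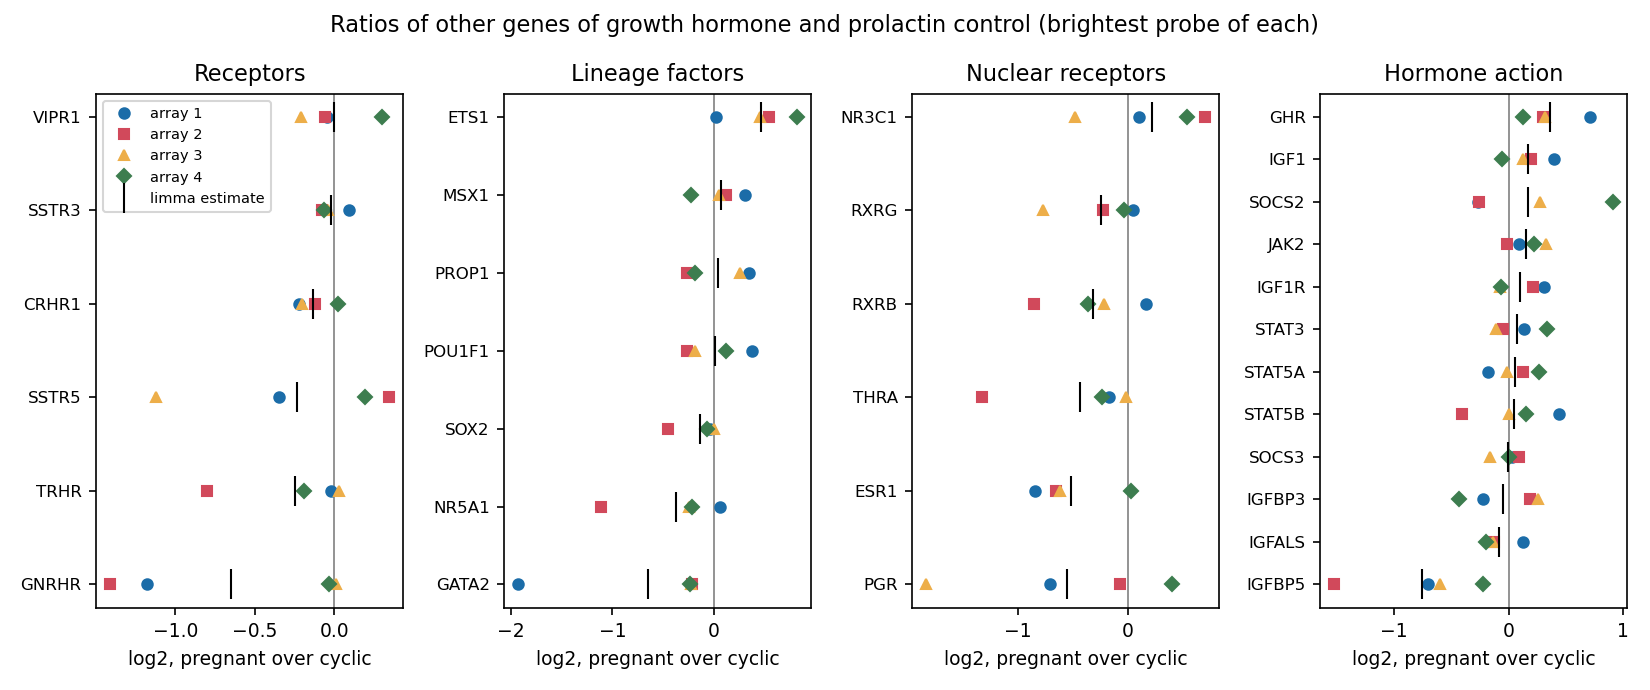
Log2 ratio of pregnant over cyclic (horizontal axis) for the tested genes of 4 lists around growth hormone and prolactin, each by its brightest probe; coloured points are the 4 arrays and the black stroke is the limma estimate. ETS1 and GHR lie above 0 on all 4 arrays. IGFBP5, the lineage factor GATA2 and the nuclear receptor THRA lie below 0 on all 4, while PGR and SSTR5 have pairs on both sides of 0.

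The tissue label was checked against markers. LHB, FSHB, CGA, TSHB and POMC, the other hormone genes of the lobe, were well above background in all 8 channels. Of 5 markers of the intermediate and posterior lobes, 3 were tested. OXT was well above background in 8, PCSK2, a prohormone convertase, in 7 and GFAP, of pituicytes, in 4 of 8 channels, and AVP, the vasopressin precursor, in 3. OXT had ratios of -0.67, -0.62, 0.025 and -0.16, and ranked 8 of 2409 genes in likeness to PRL probe 1 (root mean square difference 0.16). PCSK2, with 1.43, -0.55, -0.82 and 1.56, ranked 2392, and GFAP, with -0.35, 0.37, -0.22 and -0.059, ranked 836. The summed level of the 3 markers lay between 3605 and 9653 in pregnant gilts and between 5092 and 10080 in cyclic gilts. Their part in the PRL values was not tested.

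The other marker lists were as follows. Of 5 other hormone genes 4 stood below 0 (median -0.11), as did 52.4% of all estimates. LHB had an unadjusted limma p of 0.0338 and an adjusted p of 0.605. On the lower side 4.59% of all probes had an unadjusted p under 0.05. The medians of the 5 genes on arrays 1 to 4 were -0.56, 0.63, -0.84 and -0.12, with the sign of GH1 on each array. TSHB, the thyrotropin subunit, had -1.67, 4.48, -3.03 and -4.20, and FSHB, of follicle-stimulating hormone, -0.38, 0.35, 2.53 and -0.84. POMC, the corticotropin precursor, had -0.56, 0.64, -0.84 and 0.31, and CGA, the common alpha subunit, -0.54, 0.63, -0.94 and 0.46. Both had the sign of GH1 on arrays 1 to 3 and the opposite sign on array 4. POMC and CGA, at 17.94 and 17.87, belong to the bright probes above 16. The medians of those probes, -0.24, 0.14, -0.27 and 0.15, had the sign of both genes on all 4 arrays. LHB, also bright at 16.83, was below 0 on all 4. The part of the bright-probe shift in these values was not tested. The summed level of the 5 genes lay between 515600 and 814900 in pregnant gilts and between 586000 and 959300 in cyclic gilts. Of 8 stroma and endothelium markers 5 were tested, with 4 estimates below 0, 0 at an unadjusted p under 0.05, and list medians of -0.62, 0.25, -0.33 and 0.033 on arrays 1 to 4. COL1A2, a collagen chain, had -0.79, -0.81, 0.40 and -0.57. CDH5, of endothelial junctions, stood at 0.51 ± 0.25, but its 1 other probe was of opposite sign, and the endothelial genes PECAM1 and VWF stood at -0.19 ± 0.11 and -0.24 ± 0.11. Of 7 blood and immune markers 3 were tested, with AIF1, of macrophages, at 0.39 ± 0.14 (limma unadjusted p = 0.0384, adjusted p = 0.605) and CD163, another macrophage gene, at -0.37 ± 0.21. An unadjusted p under 0.05 on the higher side was reached by 3.43% of all probes. Of 4 folliculostellate markers 0 could be named on the array. Among somatotrope markers DLK1 stood at -0.65 ± 0.29 with 0.0070, -1.43, -1.14 and -0.041 on arrays 1 to 4, so it was low on array 3 like GH1 and GHRHR but also on array 2, where GH1 was above 0. The part of these lists in the GH1, PRL and GHRHR values was not tested.

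**Figure D4:**
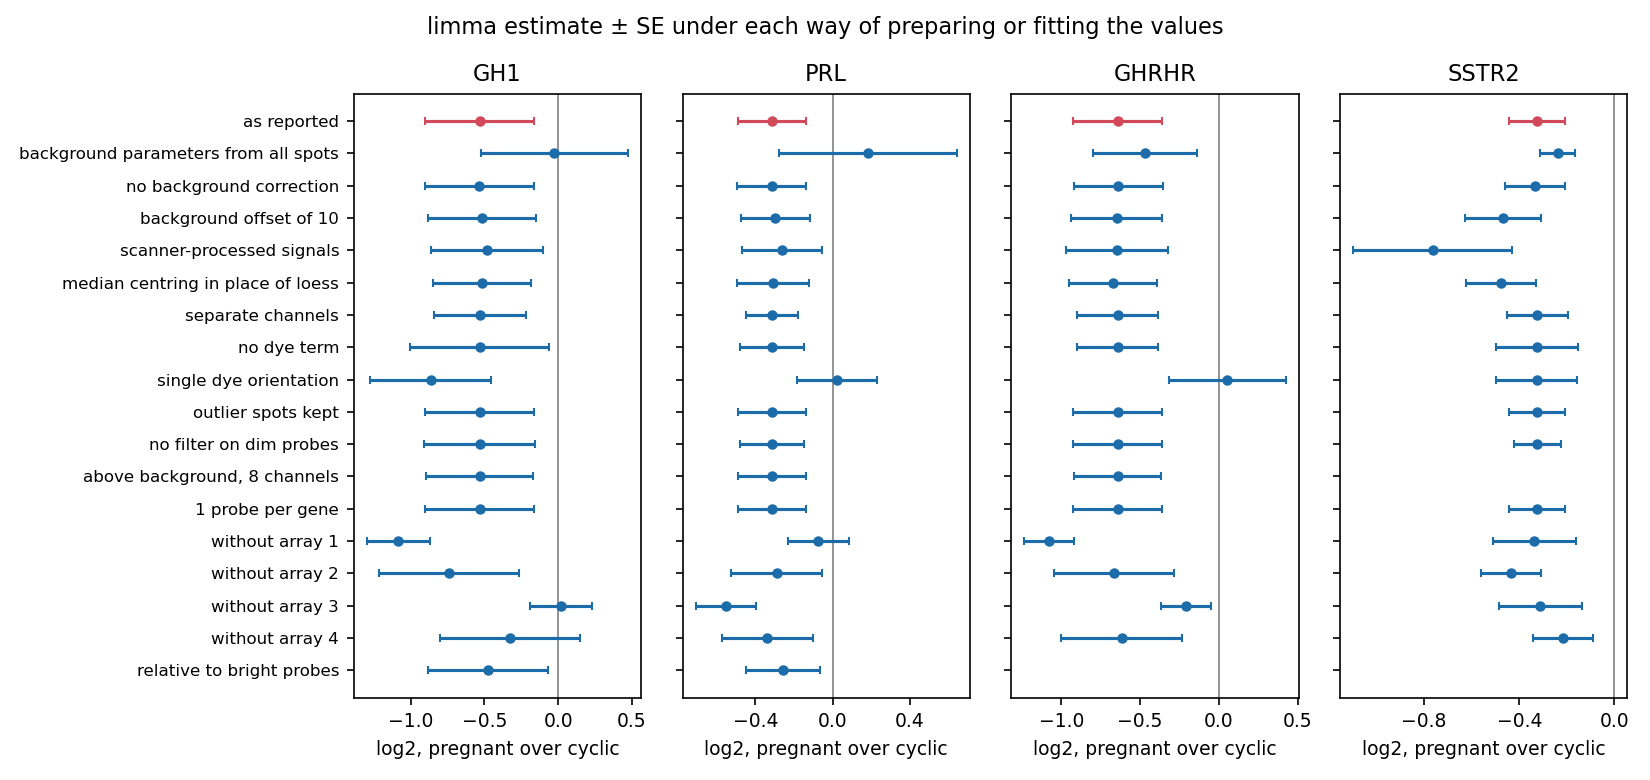
Limma estimate ± standard error of log2 pregnant over cyclic (horizontal axis) for GH1, PRL probe 1, GHRHR and SSTR2 as reported (red) and under each alternative preparation or fit (blue, listed down the page). GH1 reaches 0.019 without array 3, PRL turns to 0.18 and 0.022 under 2 settings, GHRHR to 0.052 under 1, and SSTR2 stays below 0.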

How the data were processed

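RNA with an integrity number between 7.5 and 10 was labelled with Cy3 or Cy5, per the labels' protocols. Each array took 825 ng per dye of cRNA, the labelled copy of that RNA. The 4 arrays lay on 1 slide scanned once, so there was no slide to block. The deposited files hold median spot and background intensity from Agilent Feature Extraction 10.7.3.1, processed intensity after background subtraction, detrending and dye normalization, and a log10 ratio of processed red over green, per the file headers. The authors' deposited table holds log2 ratios, which equalled those of the processed signals within 0.001 for all 43553 probes spotted once, turned to pregnant over cyclic, with column medians between -0.0726 and 0.150 and no further centring found.

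Files were read in R 4.3.3 (jsonlite 2.0.0, data.table version 1.17.8) and fitted with limma 3.58.1. Normexp corrected the background (offset 50, parameters from spots not marked as outliers) and loess normalized the ratios (span 0.3, 1417 control spots at weight 0). Spots marked as outliers were dropped (26 to 63 per array), and spots of a probe were averaged. A probe was kept where 4 or more of its 8 channels were well above background. lmFit and eBayes estimated pregnancy and a dye effect per probe, and p-values were adjusted over 25203 probes (Benjamini-Hochberg). Normalized levels per animal add Aquantile scaling between arrays. The fit of pregnancy and dye was tested on simulated ratios with known answers. Background correction, normalization, the filter and the scaling between arrays were not part of that simulation. RefSeq accessions named 6700 probes. The files name no genome build, so no coordinates are given, and no probe sequence was used here.

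Named besides the members were, by rule, the 3 genes nearest to each member and, of each list, genes at an unadjusted p under 0.05 and the 2 of largest estimate. POU1F1 and the other markers were named for the tissue check. Members and lists were chosen with earlier results of these data known. Alternatives covered background, offset, normalization, dye, filter, probes per gene and arrays left out.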

Additional observations from a re-analysis of the deposited data

Results flagged for a closer look

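Of 54 sets of 4 values examined for 1 value far from the other 3, 4 stood out, where chance gives about 1 in 20. The GH1 level of the pregnant gilt on array 3, at 16.218 on the log2 scale, lay apart from the other pregnant gilts, which were between 18.03 and 18.37. PRL probe 3 had its array 3 ratio at 0.259 apart from -0.60, -0.61 and -0.52. The level of the same probe in the pregnant gilt of array 3 was 17.862, against 17.37, 17.45 and 17.37 in the other pregnant gilts. GATA2 had a ratio of -1.929 on array 1, against -0.22, -0.23 and -0.23 on the others. The GH1 and PRL values come from 1 pair of animals, and the cause was not tested.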

How the results depend on the processing

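The estimates kept their sign under 16 of 17 alternatives for GH1, 15 of 17 for PRL, 15 of 16 for GHRHR and 15 of 15 for SSTR2, with limma adjusted p between 0.241 and 1, and 0 member probes passed under any of them. Some of these alternatives returned the main estimates unchanged and altered only their error or the adjustment. They were separate channels, no dye term, outlier spots kept, no dim-probe filter, all 8 channels and 1 probe per gene. Their share of the count says nothing about the sign. With background parameters from all spots GH1 stood at -0.026, close to 0, PRL at 0.183, and 4 of the 7 member probes were below 0. With a single dye orientation PRL stood at 0.022, GHRHR at 0.052 and 3 probes below 0. Without a dye term that setting gives the fitted dye effect with its sign turned, so it does not measure pregnancy by the label fields. With 1 array left out, with the dye term kept, GH1 ranged from -1.083 to 0.019, PRL from -0.552 to -0.073, GHRHR from -1.077 to -0.208 and SSTR2 from -0.434 to -0.214, 6 to 7 member probes were below 0, 0 to 8 probes passed the adjusted threshold and 928 to 3247 had an unadjusted p under 0.05. The adjusted threshold was passed by 3 probes with an offset of 10 and by 4 with separate channels, none of them members. At an unadjusted p under 0.05 stood 3549 probes with separate channels and 3140 of 43603 with no filter. With 1 probe per gene 4 of 4 member probes were below 0, fewer because fewer were read. Requiring all 8 channels left out SSTR2. The causes of the other changes were not tested. The setting relative to bright probes was chosen after seeing the data, with GH1 at -0.48 and PRL at -0.26. No further paired analysis was possible because each ratio already pairs the animals of an array. SSTR2 is limited by its signal over background.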
